A study of Mus musculus with 10 samples.

Results

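The 37 genes described here carry the cell's response to low oxygen and the breakdown of glucose to lactate. They were chosen by name, as genes of the hypoxia-inducible factor (HIF) pathway and of glycolysis, and all 37 were found among the 55471 identifiers measured and passed the filter on low counts. They were split by role into 5 genes of oxygen sensing, 16 glycolytic enzymes, 5 carriers and regulators and 11 other HIF targets. RNA came from the whole brain of 10 wild-type Swiss Webster mouse pups, given as neonatal day 5, and each pup gave 1 library. All 10 had a hypoxic-ischemic brain injury, and no uninjured brain was used here, so every difference below is between injured brains with and without the drug. The 5 untreated pups are numbered 1 to 5, and the 5 pups numbered 6 to 10 received allopregnanolone, a neurosteroid that acts on GABA-A receptors. Estimated counts summed to 18656836 to 34270723 a library, and library 6 was the deepest. Levels are CPM, counts scaled to a common library size.

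HIF is a transcription factor made of an oxygen-sensitive alpha subunit and a stable partner. With oxygen present, prolyl hydroxylases of the EGLN family mark the alpha subunit, the VHL protein binds it, and it is broken down. When oxygen falls, HIF gathers in the nucleus and raises the genes of glucose uptake, glycolysis and lactate export, and other targets that spare oxygen. HIF is controlled mainly as a protein, so the mRNA of its subunits is no direct reading of its activity. In the brain, neurons and glia carry different forms of several glycolytic enzymes.

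With allopregnanolone 9 of the 37 genes rose, 3 fell and 25 did not pass an adjusted p of 0.05 in edgeR's test. Of the 16 glycolytic enzymes 8 rose and 1 fell, in oxygen sensing 1 of 5 rose and 1 fell, none of the 5 carriers and regulators passed, and of the 11 other HIF targets P4ha1 fell. Of all 17101 genes tested, 11.3% passed, 6.61% higher and 4.65% lower, so the share among the glycolytic enzymes (56.2%) lay above this background and that among the other HIF targets (9.09%) near it. These shares also depend on level, since small changes pass more easily in abundant genes. Untreated means were 175 to 793 CPM for the enzymes that rose and 1.46 to 79.0 CPM for the other HIF targets. Shares at a matched level were not computed, and the genes were chosen with earlier results of these data known. The changes were small: none of the 12 reached 1.5-fold. The median log2 fold change was 0.17 over the glycolytic enzymes, 0.02 over oxygen sensing, -0.08 over carriers and regulators, 0.05 over the other HIF targets and -0.00 over all genes. The libraries of the groups did not overlap for 8 of the 37 genes, against 9.64% of all genes tested. All 8 were among the 12 that passed, a share like that over all genes that passed (1295 of 1926).

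The count of higher glycolytic enzymes depended on scaling and on single libraries. It was 4 (Aldoa, Gapdh, Pgam1 and Eno2) with library totals alone, a scaling that moves the median of all genes by -0.059 on the log2 scale and turns the split over all genes from 1131 higher and 795 lower to 783 higher and 1451 lower. It was 2 to 5 when any library other than untreated 2 or 5 was left out, the lowest being without untreated library 3. The names of untreated libraries 1 to 3 carry another prefix than the remaining 7. With those 3 left out, none of the 12 passed (adjusted p = 0.103 to 0.395, edgeR), all 12 kept their direction, 8 glycolytic enzymes were higher at an unadjusted p under 0.05, and the count over all genes fell from 1926 to 105. The prefix held by untreated libraries 1 to 3 has no treated library, so no comparison within it exists.

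**Figure D1:**
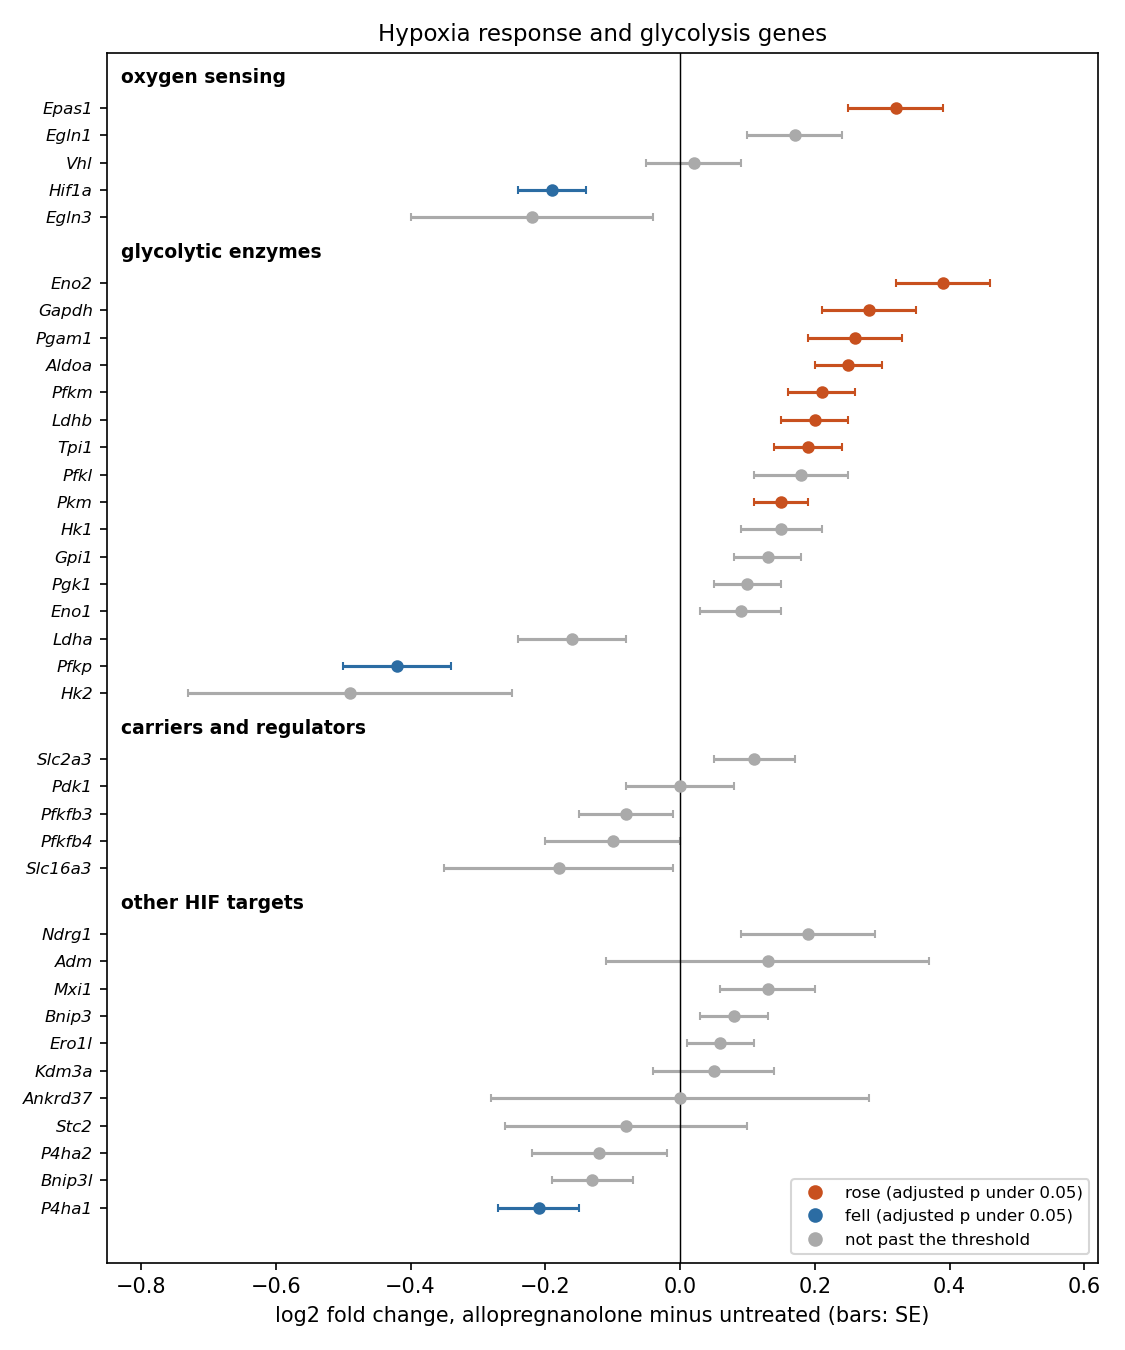
Log2 fold change (allopregnanolone minus untreated, x axis) of the 37 genes by role; points are edgeR estimates, bars their standard errors, and colours mark genes past an adjusted p of 0.05. Of the 16 glycolytic enzymes 13 lie to the right of 0, Pfkp and Hk2 lie farthest to the left, and the other HIF targets scatter around 0.

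The sequence just before the start of some of these genes is shown because they differ in direction although they sit in the same pathway. HIF binds a core of 5 letters, ACGTG or GCGTG, and both were searched on both strands (CACGT and CACGC when read on the other strand) in the 250 bases before each start listed by RefSeq (GRCm38.p6). Overlapping matches counted as 1 site. In capitals are the matches. Ldha and Ldhb make the 2 subunits of lactate dehydrogenase, Pfkp is the phosphofructokinase that fell, Eno2 the enolase that rose and P4ha1 the other HIF target that fell. Ldha has 2 windows, of which the upstream one is shown. It (chr7:46845554-46845803 on the plus strand) held 3 sites, which begin 145, 48 and 34 bases before the start, and the former 2 are the letters CACGTG, which hold the core on both strands. By GENCODE M21, Ldha begins at 46841475, so the Ldha window shown lies inside that gene, before a RefSeq start farther downstream. The Ldhb window (chr6:142507958-142508207 on the minus strand) held 1 site, 126 bases before the start. The Pfkp window (chr13:6648772-6649021 on the minus strand) held 3 sites, at 136, 68 and 23 bases, and the P4ha1 window (chr10:59323046-59323295 on the plus strand) held 3, at 163, 126 and 16 bases. The Eno2 window (chr6:124769674-124769923 on the minus strand) held none of these letters.
Ldha: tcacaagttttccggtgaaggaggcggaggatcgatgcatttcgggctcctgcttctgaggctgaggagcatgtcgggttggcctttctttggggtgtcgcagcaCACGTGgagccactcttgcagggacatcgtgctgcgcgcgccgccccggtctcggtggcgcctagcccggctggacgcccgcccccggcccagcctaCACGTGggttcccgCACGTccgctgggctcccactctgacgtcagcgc
Ldhb: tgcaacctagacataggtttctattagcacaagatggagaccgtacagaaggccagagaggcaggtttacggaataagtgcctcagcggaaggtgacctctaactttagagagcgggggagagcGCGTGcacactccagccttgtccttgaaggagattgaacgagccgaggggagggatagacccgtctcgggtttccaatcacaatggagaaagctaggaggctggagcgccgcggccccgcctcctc
Pfkp: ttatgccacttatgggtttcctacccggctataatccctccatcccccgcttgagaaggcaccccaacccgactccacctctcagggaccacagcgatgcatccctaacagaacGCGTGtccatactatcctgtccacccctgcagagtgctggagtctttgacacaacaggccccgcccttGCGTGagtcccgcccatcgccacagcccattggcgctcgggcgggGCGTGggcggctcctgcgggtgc
P4ha1: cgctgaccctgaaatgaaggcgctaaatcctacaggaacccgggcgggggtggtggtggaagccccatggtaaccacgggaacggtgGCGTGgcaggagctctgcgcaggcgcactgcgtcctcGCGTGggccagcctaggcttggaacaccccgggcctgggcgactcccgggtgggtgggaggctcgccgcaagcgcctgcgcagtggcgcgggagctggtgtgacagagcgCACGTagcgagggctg
Eno2: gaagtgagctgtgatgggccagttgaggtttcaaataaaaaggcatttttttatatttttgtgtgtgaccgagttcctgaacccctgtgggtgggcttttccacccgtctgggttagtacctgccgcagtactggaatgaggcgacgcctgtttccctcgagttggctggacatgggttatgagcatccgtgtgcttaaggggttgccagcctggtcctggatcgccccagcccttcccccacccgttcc
Of the 33 genes of the set found in the promoter table (Ero1l under its RefSeq symbol Ero1a), 29 (87.9%) had a site in at least 1 window, against 59.1% of the 12075 tested genes with a window. Counted by windows, the shares were 75.5% of 49 and 53.1% of 15475. A site was present in 6 of 8 genes that rose, in 3 of 3 that fell and in 20 of 22 that did not pass, so most genes held a site whatever their direction. Epas1, Slc2a3, Bnip3l and Ndrg1 were not matched. A match of 5 letters describes the sequence and does not show that HIF binds there.

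Among the oxygen sensing genes the 2 HIF alpha subunits went in opposite directions. Hif1a (chromosome 12, 73901375 to 73947530 on GRCm38), the widely expressed subunit, stood at 85.9, 89.1, 88.9, 95.2 and 86.3 CPM in untreated libraries 1 to 5 and at 73.6, 78.0, 80.3, 82.5 and 75.5 CPM in treated libraries 6 to 10. Every treated library lay below every untreated one (log2 fold change -0.19, SE 0.05, adjusted p = 0.0225, edgeR). Epas1 (chromosome 17, 86753700 to 86833410 on GRCm38), which makes the HIF2 alpha subunit and is strong in endothelium and astrocytes, was at 134, 135, 121, 120 and 143 CPM without the drug and 177, 175, 159, 155 and 147 CPM with it. Every treated library lay above every untreated one, with untreated library 5 and treated library 10 nearest to each other (log2 fold change 0.32, SE 0.07, adjusted p = 0.0095, edgeR). The ratio of Epas1 to Hif1a within a library, which no scaling can move, was 1.26 to 1.66 untreated and 1.88 to 2.41 treated, 1.42-fold higher (adjusted p = 0.0265, exact permutation test, two-sided). Per kilobase of exon, the level was 15.1 CPM for Hif1a and 23.4 CPM for Epas1 in untreated brains, and 13.2 and 29.1 CPM in treated ones. Among 18 alternative analyses Hif1a lost its call in 3, without untreated library 4, without treated library 10 and without untreated libraries 1 to 3 (adjusted p up to 0.177, edgeR). Epas1 lost it in the last of these alone (adjusted p = 0.173, edgeR).

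The genes that mark HIF for breakdown did not pass. Egln1, the main oxygen-sensing hydroxylase, was at 47.3, 50.0, 45.1, 41.8 and 48.3 CPM without the drug and 48.4, 46.3, 54.1, 58.7 and 53.7 CPM with it, and the groups overlapped (log2 fold change 0.17, SE 0.07, adjusted p = 0.136, edgeR). Egln3, a hydroxylase that is itself induced by HIF, was at 12.6, 11.3, 7.45, 10.0 and 9.70 CPM without the drug and 7.04, 10.9, 11.6, 6.46 and 8.00 CPM with it (log2 fold change -0.22, SE 0.18, adjusted p = 0.455, edgeR). Vhl, the recognition subunit of the ubiquitin ligase, was at 32.7, 29.6, 32.2, 31.8 and 28.2 CPM without the drug and 27.6, 31.9, 34.9, 31.9 and 30.8 CPM with it (log2 fold change 0.02, SE 0.07, adjusted p = 0.872, edgeR). Egln3 varied most of the 3 between libraries, with a coefficient of variation of 18.8% untreated and 26.4% treated.

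Among the glycolytic enzymes the enolase Eno2 rose most. Eno2 (chromosome 6, 124760053 to 124769673 on GRCm38), the enolase form of mature neurons, was at 551, 590, 508, 485 and 616 CPM without the drug and 772, 775, 698, 679 and 674 CPM with it. Untreated library 5 was the highest of its group and still lay below the lowest treated library (log2 fold change 0.39, SE 0.07, adjusted p = 0.00553, edgeR; 1.31-fold). Eno1, the form found in most cells, ranged from 212 to 254 CPM untreated and 234 to 256 CPM treated and did not pass (log2 fold change 0.09, SE 0.06, adjusted p = 0.338, edgeR). The ratio of Eno1 to Eno2 was 0.374 to 0.461 untreated and 0.302 to 0.380 treated, 1.23-fold lower (adjusted p = 0.0397, exact permutation test, two-sided), with untreated library 5 just below treated library 10. This call was lost without untreated library 1, 3 or 4, without treated library 6, 7 or 9, and without untreated libraries 1 to 3. Reads of Eno1 are uncertain, since 4 other genes share at least 95% identity over at least 200 bases with it and held 141% of its own CPM.

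At the first committed step of glycolysis 1 enzyme form rose and another fell. Phosphofructokinase has 3 subunits, of liver (Pfkl), muscle (Pfkm) and platelet (Pfkp) type, all of them made in brain. Pfkp (chromosome 13, 6579768 to 6648777 on GRCm38) stood at 311, 318, 360, 348 and 271 CPM without the drug and 223, 249, 254, 258 and 222 CPM with it. Over all 10 libraries it was the only glycolytic enzyme that fell past the threshold, 1.33-fold lower with no overlap (log2 fold change -0.42, SE 0.08, adjusted p = 0.00506, edgeR). Pfkm (chromosome 15, 98092589 to 98132451 on GRCm38) was at 178, 192, 165, 162 and 178 CPM without the drug and 187, 207, 204, 205 and 210 CPM with it. It rose 1.16-fold, although treated library 6 was below untreated library 2 (log2 fold change 0.21, SE 0.05, adjusted p = 0.0266, edgeR). Pfkl was at 54.4, 58.2, 51.9, 47.8 and 51.0 CPM without the drug and 59.8, 51.4, 59.6, 62.7 and 64.8 CPM with it, with 4 treated libraries above all untreated ones, and did not pass (log2 fold change 0.18, SE 0.07, adjusted p = 0.105, edgeR). The ratio of Pfkp to Pfkm fell in every treated library below the untreated range, from 1.52 to 2.18 down to 1.06 to 1.26, which was 1.54-fold lower (adjusted p = 0.0265, exact permutation test, two-sided). The ratio of Pfkl to Pfkm differed by -0.04 on the log2 scale (adjusted p = 0.855, exact permutation test). On the scale of CPM per kilobase of exon, Pfkp made up 28.5% ± 3.22 of the 3 in untreated and 20.5% ± 1.16 in treated libraries (SD, n = 5 each), Pfkm 62.2% ± 2.95 and 69.3% ± 1.05, and Pfkl 9.36% ± 0.371 and 10.2% ± 0.916. These shares depend on the length used, all annotated exons of a gene merged: 13401 bases for Pfkp, 3340 for Pfkm and 6675 for Pfkl. By CPM alone Pfkp was the highest of the 3 in untreated libraries, with means of 321, 175 and 52.7 CPM in that order. The shares are thus no measure of which subunit dominates. Exons of Pitrm1 lie opposite 5.58% of the Pfkp exons, and whether the counting used strand is not given in the sources used here.

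Lactate dehydrogenase also shifted between its subunits. Ldhb (chromosome 6, 142490249 to 142507957 on GRCm38), the heart-type subunit, was at 175, 174, 164, 186 and 175 CPM without the drug and 190, 199, 200, 213 and 204 CPM with it. All treated libraries lay above the untreated ones (log2 fold change 0.20, SE 0.05, adjusted p = 0.0177, edgeR; 1.15-fold). Ldha (chromosome 7, 46841475 to 46855627 on GRCm38), the muscle-type subunit and a classical HIF target, was at 196, 207, 176, 192 and 176 CPM without the drug and 142, 160, 187, 172 and 184 CPM with it, with overlapping groups (log2 fold change -0.16, SE 0.08, adjusted p = 0.173, edgeR). The ratio of Ldha to Ldhb was 1.12, 1.19, 1.08, 1.03 and 1.00 in untreated libraries 1 to 5 and 0.746, 0.803, 0.935, 0.811 and 0.903 in treated libraries 6 to 10. It was thus above 1, if only just in library 5, in every untreated and below 1 in every treated library, 1.29-fold lower (adjusted p = 0.0265, exact permutation test, two-sided). Without untreated library 1 its adjusted p was 0.0529 by the same exact permutation test.

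Apart from Eno2, the enzymes between fructose bisphosphate and pyruvate that passed rose by 1.11-fold to 1.21-fold. Aldoa (chromosome 7, 126795234 to 126800751 on GRCm38), the aldolase with the highest level per kilobase of the set, stood at 786, 863, 759, 744 and 814 CPM without the drug and 930, 937, 954, 935 and 967 CPM with it. The treated libraries lay close together and above all untreated ones (log2 fold change 0.25, SE 0.05, adjusted p = 0.00777, edgeR). A second identifier of the name Aldoa was not used, and exons of Fam57b lie opposite 0.859% of those of Aldoa. Tpi1, the triose phosphate isomerase, was at 323, 355, 289, 327 and 317 CPM without the drug and 376, 383, 365, 353 and 364 CPM with it, with untreated library 2 above treated library 9 (log2 fold change 0.19, SE 0.05, adjusted p = 0.0381, edgeR). Pgam1, which moves the phosphate of phosphoglycerate, was at 383, 410, 334, 332 and 414 CPM without the drug and 480, 454, 439, 418 and 447 CPM with it (log2 fold change 0.26, SE 0.07, adjusted p = 0.0318, edgeR). Its groups did not overlap, but untreated libraries 2 and 5 came close to treated library 9. Pkm, the pyruvate kinase of brain, was at 608, 612, 565, 583 and 590 CPM without the drug and 654, 651, 653, 663 and 672 CPM with it, a small difference with a tight spread and no overlap (log2 fold change 0.15, SE 0.04, adjusted p = 0.0355, edgeR). A gene of unknown type on the same strand, Gm49759, shares 15.3% of the Pkm exons. Pgk1, which makes ATP from bisphosphoglycerate and is a classical HIF target, ranged from 60.7 to 69.0 and from 65.7 to 75.1 CPM and did not pass (log2 fold change 0.10, SE 0.05, adjusted p = 0.271, edgeR). Several of these calls were lost when 1 library or another was left out, with the direction kept. Over the 18 alternatives the log2 fold change of Tpi1 ran from 0.13 to 0.23 and that of Pkm from 0.10 to 0.17. Leaving out 1 library also moved the count over all genes, to 1084 at the lowest. Tpi1 lost its call in 12 of the 18 alternatives (without any library other than untreated 2, with library totals alone and with no count filter among them). Pkm lost it in 10 (with no count filter too) and Pfkm in 9, both without untreated library 1, 3 or 4 or treated library 7, 8, 9 or 10 and with library totals alone. Pgam1 lost it in 8 (without untreated library 1, 3 or 4 or treated library 6, 7, 8 or 10), Gapdh in 6 (without untreated library 1, 3 or 4 or treated library 6 or 7) and Ldhb in 3 (without untreated library 3 and with library totals alone). These counts include the analysis without untreated libraries 1 to 3, where adjusted p values were highest for Ldhb (0.324, edgeR), while Eno2, Aldoa and Pfkp each lost theirs in 1, the one without untreated libraries 1 to 3.

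Gapdh, the dehydrogenase often taken as a reference gene, rose in the table, but its reads can be shared with many copies. The row of Gapdh (chromosome 6, 125161715 to 125166467 on GRCm38) held 447, 469, 400, 417 and 485 CPM in untreated and 600, 596, 499, 485 and 514 CPM in treated libraries (log2 fold change 0.28, SE 0.07, adjusted p = 0.0297, edgeR). Untreated library 5 and treated library 9 were level at 485 CPM. Another 127 identifiers, of which 41 passed the filter on low counts, share at least 95% identity over at least 200 bases with Gapdh, and they summed to 1331 to 1511 CPM untreated and 1594 to 1669 CPM treated. Their sum was thus 314% of the Gapdh row on average, and with it added the log2 ratio of the group means went from 0.28 to 0.22. Of the 41 copies tested 4 rose, a count too small to set apart from the 6.61% of all genes tested that rose. Pgk1 can share reads in the same way, with 4 copies at 96.0% of its own CPM, and levels of Gapdh, Pgk1 and Eno1 are uncertain for this reason. For Pgam1 and Ldhb the copies held 12.4% and 10.7%, and the copy of Ldhb also rose.

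The enzymes of the opening steps, the hexokinases and Gpi1, did not pass. Hk1 (chromosome 10, 62268855 to 62379908 on GRCm38), the hexokinase of brain bound to mitochondria, was at 347, 390, 353, 328 and 392 CPM without the drug and 416, 408, 411, 383 and 391 CPM with it (log2 fold change 0.15, SE 0.06, adjusted p = 0.105, edgeR). Treated libraries 6, 7 and 8 lay above all untreated ones, and treated libraries 9 and 10 within their range. Gpi1, which turns glucose phosphate into fructose phosphate, was at 539, 558, 520, 496 and 562 CPM without the drug and 628, 553, 580, 573 and 587 CPM with it, with treated library 7 alone inside the untreated range (log2 fold change 0.13, SE 0.05, adjusted p = 0.132, edgeR). Hk2, the hexokinase that HIF raises in many tissues, was scarce, at 4.14, 3.71, 3.84, 3.28 and 1.65 CPM without the drug and 2.00, 2.08, 3.18, 1.94 and 2.68 CPM with it. Untreated library 5 was its lowest library of all (log2 fold change -0.49, SE 0.24, adjusted p = 0.197, edgeR), and without that library Hk2 fell past the threshold (log2 fold change -0.66, adjusted p = 0.0299, edgeR), while without untreated libraries 1 to 3 its log2 fold change was -0.06. Per kilobase of exon in untreated brains, levels ran from 0.557 CPM for Hk2 through 42.4 CPM for Hk1 and 82.9 CPM for Gpi1 to 272 CPM for Aldoa, with Pgam1 at 189 CPM and Pkm, Eno2, Tpi1, Ldhb and Gapdh between 107 and 118 CPM.

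**Figure D2:**
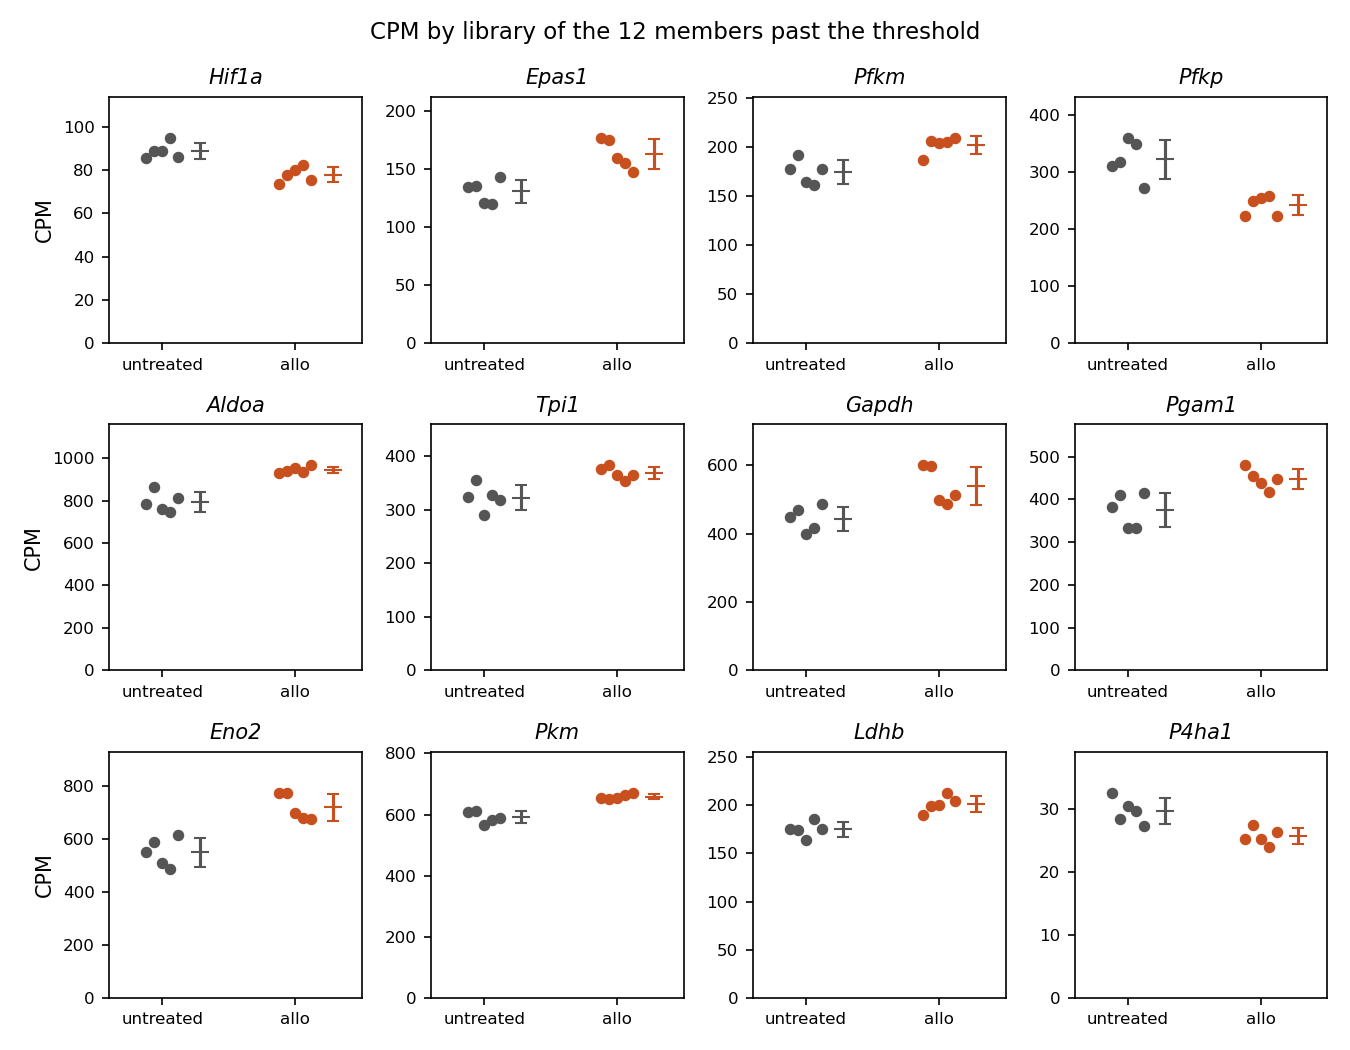
CPM (y axis, from 0) of the 12 genes past the threshold in each of 5 untreated (grey) and 5 allopregnanolone (orange, "allo") libraries; points are libraries in the order of the pup numbers, and the bars beside them show mean and SD. Hif1a, Epas1, Pfkp, Aldoa, Pgam1, Eno2, Pkm and Ldhb show no overlap, and the changes are small against the level of each gene.

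Summed over the 16 glycolytic enzymes, CPM came to 4928 to 5510 in untreated and 5709 to 5978 in treated libraries, with means of 5186 ± 255 and 5854 ± 103 (SD, n = 5 each). The sum is carried by the few abundant enzymes and is given as a description. For 6 of the 8 enzymes that rose, untreated libraries 3 and 4 were the 2 lowest of all untreated libraries. The same 2 libraries had the lowest sums of the oligodendrocyte and neuron markers among untreated libraries. This did not hold for the markers of astrocytes, immature neurons, cycling cells, microglia, endothelium or red blood cells.

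Markers of several cell types moved with the groups, to be read beside the 11.3% of all genes tested that passed. For neurons, microglia and red blood cells the counts were too small to set apart from that share. All 10 oligodendrocyte markers rose, with summed CPM of 2027 to 3905 untreated and 6005 to 8113 treated. Of 10 astrocyte markers 5 rose (3002 to 3689 against 3677 to 4145 CPM), of 10 neuron markers 2 rose (6339 to 7548 against 7117 to 8513 CPM) and of 10 endothelial markers 4 rose (199 to 219 against 242 to 271 CPM). Of 10 markers of immature neurons 7 fell (2224 to 2468 against 1808 to 1874 CPM), as did 5 of 10 markers of cycling cells (46.2 to 97.2 against 33.0 to 41.9 CPM). Of 10 microglia markers 1 rose and 1 fell (280 to 391 against 284 to 308 CPM), and of 6 tested red blood cell markers 1 rose (598 to 1468 against 976 to 1572 CPM for all 7). No marker was at 0 in any library. The part of these markers in the changes of the glycolytic genes was not tested, and in whole-brain RNA fewer cells of a type and less RNA per cell cannot be told apart.

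None of the 5 carriers and regulators passed in edgeR's test, and none had an unadjusted p under 0.05 with edgeR, DESeq2 or limma. Slc2a3, the glucose transporter of neurons, was at 137, 143, 132, 127 and 129 CPM without the drug and 137, 138, 162, 142 and 141 CPM with it, and all treated libraries but library 8 lay within the untreated range (log2 fold change 0.11, SE 0.06, adjusted p = 0.231, edgeR). Pfkfb3, which makes the activator of phosphofructokinase, was at 32.1, 34.9, 33.5, 33.9 and 32.3 CPM without the drug and 32.8, 31.2, 26.1, 35.9 and 31.3 CPM with it (log2 fold change -0.08, SE 0.07, adjusted p = 0.499, edgeR). Its relative Pfkfb4 ranged from 11.8 to 13.4 CPM untreated and 9.90 to 14.0 CPM treated. Pdk1, a HIF-induced kinase that inhibits pyruvate dehydrogenase, had a mean of 29.9 CPM in both groups (log2 fold change -0.00, SE 0.08, adjusted p = 0.99, edgeR). Slc16a3, the lactate exporter MCT4, was low, with 3.49 to 5.23 CPM untreated and 2.77 to 4.84 CPM treated. The ratio of Pfkfb4 to Pfkfb3 differed by -0.01 on the log2 scale (adjusted p = 0.929, exact permutation test).

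Of the 11 other HIF targets P4ha1 fell, and none rose in edgeR, DESeq2 or limma, also not at an unadjusted p under 0.05. At that unadjusted level 2 were lower with each tool, in edgeR P4ha1 and Bnip3l (unadjusted p = 0.0425 for Bnip3l, edgeR). Mxi1 did rise past the adjusted threshold when treated library 6 was left out (adjusted p = 0.0404, edgeR). P4ha1 (chromosome 10, 59323296 to 59373304 on GRCm38), a catalytic subunit of the prolyl hydroxylase that matures collagen, was at 32.6, 28.4, 30.5, 29.7 and 27.3 CPM without the drug and 25.3, 27.4, 25.3, 24.0 and 26.4 CPM with it. Treated library 7 lay just above untreated library 5, and the change was 1.16-fold (log2 fold change -0.21, SE 0.06, adjusted p = 0.0436, edgeR). Its call was lost in 9 of the 18 alternatives, namely with no count filter, without untreated library 1, 3 or 4, without treated library 6, 8, 9 or 10, and without untreated libraries 1 to 3 together (adjusted p = 0.0641 to 0.395, edgeR). The related P4ha2 ranged from 8.90 to 12.2 and from 8.89 to 10.5 CPM, and the ratio of P4ha2 to P4ha1 differed by 0.10 on the log2 scale (adjusted p = 0.585, exact permutation test).

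The mitophagy receptors Bnip3 and Bnip3l are among the best known HIF targets, and neither passed. Bnip3 was at 64.9, 66.2, 57.6, 67.0 and 65.3 CPM without the drug and 64.4, 68.0, 65.2, 68.6 and 73.6 CPM with it (log2 fold change 0.08, SE 0.05, adjusted p = 0.367, edgeR). Bnip3l was at 82.3, 75.2, 80.8, 82.0 and 74.8 CPM without the drug and 67.2, 67.4, 78.9, 72.8 and 75.8 CPM with it (log2 fold change -0.13, SE 0.06, adjusted p = 0.165, edgeR). Their ratio, Bnip3 to Bnip3l, was 0.714 to 0.880 untreated and 0.826 to 1.01 treated, 1.16-fold higher (adjusted p = 0.0476, exact permutation test, two-sided). This call was lost without any library other than untreated 2 or 5 or treated 8, with adjusted p values of up to 0.127 by the exact permutation test. Ndrg1, a stress gene that myelinating cells also make, was at 28.5, 30.8, 33.8, 23.8 and 27.1 CPM without the drug and 35.2, 26.5, 34.1, 32.4 and 36.4 CPM with it, with wide overlap (log2 fold change 0.19, SE 0.10, adjusted p = 0.222, edgeR).

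The remaining 6 targets did not pass either. The demethylase Kdm3a had means of 26.4 and 27.4 CPM, the oxidase of protein folding Ero1l 37.1 and 38.5 CPM, and Mxi1, which opposes MYC, 59.0 and 64.9 CPM. Adm, which encodes the vasodilator adrenomedullin, Ankrd37 and the secreted glycoprotein Stc2 were scarce, with means of 1.46 to 2.60 CPM in both groups. At that level the coefficient of variation was 16.9% to 38.6%, and log2 fold changes had standard errors of 0.18 to 0.28, so changes of the size seen in the enzymes were not detectable at this depth. Exons of Lrp2bp lie opposite 22.7% of those of Ankrd37, and exons of the more abundant Ufsp2 opposite 3.7%.

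In all, 10 ratios between family members were tested within libraries, and 5 passed after adjustment over the 10. The 3 whose groups did not overlap, Ldha to Ldhb, Pfkp to Pfkm and Epas1 to Hif1a, each had the smallest p that 5 against 5 libraries allow, 0.00794. Hk2 to Hk1 was 1.51-fold lower (adjusted p = 0.132) and Egln3 to Egln1 1.32-fold lower (adjusted p = 0.17), both by the exact permutation test and both with overlap. Without untreated library 5 alone, Hk2 to Hk1 passed (log2 difference -0.86, adjusted p = 0.0317, exact permutation test). Without untreated libraries 1 to 3, whose names differ, the log2 differences were -0.28 for Ldha to Ldhb, -0.61 for Pfkp to Pfkm and 0.53 for Epas1 to Hif1a. With 2 libraries against 5 the smallest p of this permutation test is 0.0476. An adjusted p under 0.05 would there need all 10 ratios at that smallest p, so the lack of calls says little.

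**Figure D3:**
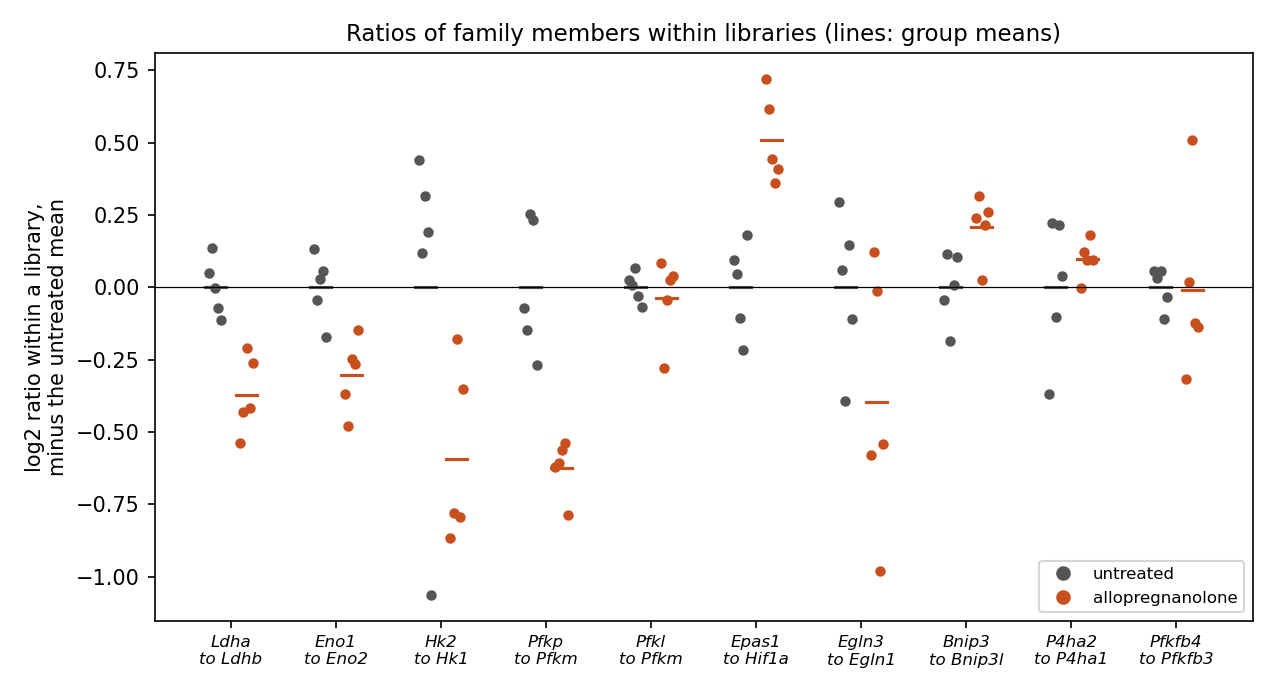
Log2 ratio of 2 family members within each library, minus the mean of the untreated libraries (y axis), for 10 pairs; points are libraries, short lines group means, grey untreated and orange allopregnanolone. The treated points of Ldha to Ldhb and Pfkp to Pfkm all lie below the untreated ones, and those of Epas1 to Hif1a all above.

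A wider list of 107 genes of the same pathways, of which 104 were tested, gave 13 higher and 4 lower (16.3%, against 11.3% of all genes). Its largest changes exceeded any within the 37 genes. Among HIF partners 1 of 17 rose, the alternative alpha subunit Hif3a, at 11.2, 9.57, 12.3, 10.7 and 10.9 CPM without the drug and 17.8, 17.7, 24.2, 24.4 and 27.0 CPM with it (log2 fold change 1.02, SE 0.12, adjusted p = 0.00051, edgeR). All treated libraries lay above the untreated ones, and treated libraries 6 and 7 were the lowest of their group. Arnt, the stable partner of the HIF alpha subunits, had means of 39.7 and 39.4 CPM (log2 fold change -0.01, SE 0.05, adjusted p = 0.908, edgeR).

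In glucose entry and other glycolysis 3 of 17 genes rose and 1 fell. Slc2a1, the glucose transporter of endothelium and astrocytes, was at 49.2, 49.1, 47.4, 49.1 and 51.3 CPM without the drug and 76.7, 85.9, 96.0, 105 and 98.8 CPM with it (log2 fold change 0.91, SE 0.07, adjusted p = 8.29e-05, edgeR). Its untreated libraries were nearly level, and its rise contrasts with the log2 fold change of 0.11 of the neuronal transporter Slc2a3, a difference that was not itself tested. Slc2a1 and Aldoa, which both rose, also belong to the functions that HIF raises, glucose uptake and glycolysis. The label of HIF target was not given here to every such gene, so labelled genes alone do not show how HIF targets moved. Gpd1, which draws triose phosphate into glycerol phosphate, was at 26.8, 28.1, 25.3, 22.2 and 31.3 CPM without the drug and 48.6, 47.1, 44.5, 46.6 and 45.3 CPM with it (log2 fold change 0.80, SE 0.08, adjusted p = 0.000107, edgeR). Aldoc, the aldolase of astrocytes and 1 of the astrocyte markers above, was at 288, 341, 263, 261 and 296 CPM without the drug and 460, 478, 465, 422 and 443 CPM with it (log2 fold change 0.65, SE 0.07, adjusted p = 0.000263, edgeR). Both genes were higher in every treated library than in any untreated one. Hk3, a hexokinase of myeloid cells, had 1.75 ± 0.411 CPM without and 0.973 ± 0.123 CPM with the drug, and so fell (SD, n = 5 each; edgeR adjusted p = 0.0292).

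In pyruvate handling 3 of 16 genes rose. Pdk2, a kinase that shuts off pyruvate dehydrogenase and is no classical HIF target, was at 75.1, 79.1, 64.4, 55.7 and 86.9 CPM without the drug and 133, 122, 114, 113 and 119 CPM with it (log2 fold change 0.73, SE 0.10, adjusted p = 0.000897, edgeR). Pdk4, another such kinase, rose from 3.88 ± 0.729 to 6.32 ± 1.61 CPM and the pyruvate carboxylase Pcx from 37.6 ± 3.12 to 47.7 ± 2.14 CPM (SD, n = 5 each). Thus of the 4 kinases of this family Pdk2 and Pdk4 rose, and Pdk1 and Pdk3 did not pass. The lactate carriers Slc16a1 and Slc16a7 did not pass (log2 fold changes -0.19 and -0.27, adjusted p = 0.052 and 0.0706, edgeR).

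Of 19 genes of the pentose phosphate pathway and glycogen 3 rose. Pygm, a glycogen phosphorylase, was at 8.51, 16.6, 12.1, 12.2 and 18.3 CPM without the drug and 33.1, 36.1, 30.0, 29.4 and 30.7 CPM with it, the largest fold of these lists at 2.35 (log2 fold change 1.24, SE 0.16, adjusted p = 0.000705, edgeR). Neither Pygm nor Pdk2 showed any overlap between the groups. The phosphoglucomutase Pgm1 rose 1.19-fold. Of 35 further HIF targets tested 3 rose and 3 fell. The collagen lysyl hydroxylase Plod1 (1.22-fold) and the growth factor binding protein Igfbp3 (1.41-fold) were higher, while the ubiquitin ligase subunit Wsb1 was 1.21-fold and the transcription factor Klf6 1.16-fold lower. Of the called genes named from these lists, Pdk4, Hk3, Klf6, Plod1 and Igfbp3 lost their calls in some fits that left out 1 library, among them untreated library 1 for Pdk4 and Hk3 and library 3 for the other three. Vegfa, the growth factor of vessels and a classical HIF target, had means of 77.1 and 83.1 CPM (log2 fold change 0.11, SE 0.06, adjusted p = 0.254, edgeR).

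**Figure D4:**
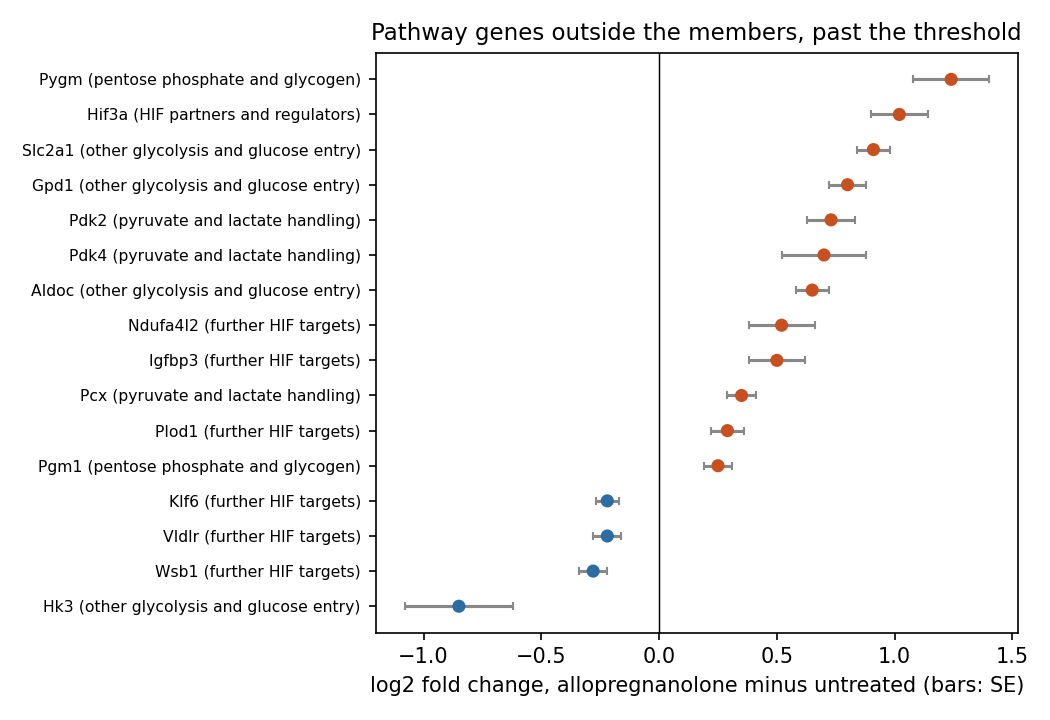
Log2 fold change (allopregnanolone minus untreated, x axis) of 16 of the 17 genes past an adjusted p of 0.05 among 104 tested pathway genes outside the set of 37, with the list of each gene in brackets; bars are standard errors. Pygm, Hif3a and Slc2a1 lie farthest to the right, and 4 genes lie to the left of 0.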

How the data were processed

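Whole-brain RNA of 10 pups went into NEBNext Ultra II Directional libraries, per the labels' protocols. The authors deposited 1 table of estimated counts per Ensembl gene, and per the submitters' processing notes the work used Partek and mm10. Its name calls them normalized, but 86.8% to 87.6% of the values above 0 were whole and totals differed between libraries. The aligner, annotation and strand setting of the counting are not stated in the sources used here.

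Counts were rounded, matched to GENCODE M21 (55230 of 55471 identifiers), kept with at least 10 counts in at least 5 libraries (17101 genes) and tested with edgeR 4.0.16 (TMM, quasi-likelihood, Benjamini-Hochberg over all genes kept, two-sided). Fold changes are treated over untreated, and a standard error is the log2 fold change over the square root of F. On simulated data for this comparison (16899 genes, 200 of them changed), 57% of 1.5-fold and 88% of 2-fold changes were found, and 5.23% of calls were false. Changes of 1.5-fold were thus often missed there, and smaller ones were not simulated. The shares are over genes of all levels, and in the data themselves more genes passed (1926), so they are only a rough guide. Copies were sought with blastn 2.17.0. The 18 alternatives were other scalings, filters and tools (DESeq2 1.42.0, limma 3.58.1), leaving out each library in turn, and leaving out untreated libraries 1 to 3.

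Members and lists were chosen with earlier results of these data known. Every member past the threshold was given in full, with, per role, the 2 others of smallest p and the 2 of highest level per kilobase. Of the wider lists, at most 4 genes past the threshold were named each, and the 6 of smallest p in full, and 1 gene is not reported here. Hk2, Arnt, Vegfa, Pdk3, Slc16a1 and Slc16a7 were added after their values were seen. Each pup was taken as a separate animal.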

Additional observations from a re-analysis of the deposited data

Results flagged for a closer look

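In 5 of the 74 groups of 5 libraries checked (37 genes in 2 groups each), 1 library stood far from the other 4, by a rule that chance meets in about 1 in 20 groups. Pfkm was at 187 CPM in treated library 6, with the others at 204 to 210 CPM. Slc2a3 was at 162 CPM in treated library 8, with the others at 137 to 142 CPM. Slc16a3 was at 5.23 CPM in untreated library 1, with the others at 3.49 to 3.96 CPM. Bnip3 was at 57.6 CPM in untreated library 3, with the others at 64.9 to 67.0 CPM, and Adm at 0.832 CPM in the same library, with the others at 1.51 to 1.69 CPM. Of these genes Pfkm alone passed the test between groups.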

How the results depend on the processing

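No called gene that the text names and no glycolytic enzyme changed direction in the alternatives run. DESeq2 and limma called the same 12 members, although DESeq2 called 2627 genes in all. With library totals alone, 1451 genes were lower, 4 glycolytic enzymes were higher and 9 genes of the wider lists were lower. With no count filter, the other HIF targets lower came to 0. Without untreated libraries 1 to 3, 80 genes were higher and 25 lower, 105 in all. There the glycolytic enzymes gave 0 higher and 0 lower, oxygen sensing 0 and 0, other HIF targets 0 lower, and the wider lists 6 higher and 0 lower. That leaves 2 untreated libraries, and how much of the loss comes from their number was not tested. The ratios without these 3 libraries, added after the data were seen, had log2 differences of -0.28 for Ldha to Ldhb, -0.24 for Eno1 to Eno2, -0.61 for Pfkp to Pfkm, 0.53 for Epas1 to Hif1a and 0.15 for Bnip3 to Bnip3l. None had an adjusted p under 0.05 by the exact permutation test, which so few untreated libraries could reach only with every ratio at the smallest p. The log2 differences of Pfkl to Pfkm (0.01), P4ha2 to P4ha1 (-0.03) and Pfkfb4 to Pfkfb3 (0.06) changed sign. Log2 fold changes near 0 also changed sign: with library totals alone Vhl (-0.04), Kdm3a (-0.01) and Ero1l (-0.00), and without the 3 libraries Pdk1 (0.15), Ankrd37 (0.15) and Adm (-0.04). The cause was not tested.

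When each library was left out in turn, all genes gave 645 to 1360 higher and 435 to 983 lower (1084 to 2343 in all). The glycolytic enzymes gave 2 to 8 higher and 1 to 2 lower, oxygen sensing 1 higher and 0 to 1 lower, other HIF targets 0 to 1 higher and 0 to 1 lower, carriers and regulators 0, and the wider lists 9 to 13 higher and 1 to 5 lower. Log2 differences ran from -0.41 to -0.33 for Ldha to Ldhb, -0.34 to -0.26 for Eno1 to Eno2, -0.86 to -0.48 for Hk2 to Hk1, -0.69 to -0.56 for Pfkp to Pfkm, -0.07 to 0.03 for Pfkl to Pfkm, 0.45 to 0.55 for Epas1 to Hif1a, -0.53 to -0.25 for Egln3 to Egln1, 0.16 to 0.26 for Bnip3 to Bnip3l, 0.01 to 0.15 for P4ha2 to P4ha1 and -0.14 to 0.07 for Pfkfb4 to Pfkfb3. Vhl ran from -0.02 to 0.06, Pdk1 from -0.06 to 0.04, Ankrd37 from -0.15 to 0.17, Adm from -0.03 to 0.23, Kdm3a from 0.00 to 0.14 and Stc2 from -0.16 to 0.01. Pfkl passed without treated library 7 (0.22, adjusted p = 0.0404, edgeR) and Mxi1 without treated library 6 (0.20, adjusted p = 0.0404, edgeR). No paired analysis was possible because the groups share no replicate numbers, mice 1 to 5 being untreated and 6 to 10 treated. Depth limits genes of a few CPM such as Adm, Ankrd37, Stc2 and Hk2.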
